A study of Zea mays with 48 samples.

Results

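A ChIP-seq peak that lies across the start of a gene joins the upstream promoter to the first transcribed bases. Such peaks were picked out of the lists of ZmCCA1-bound regions of maize seedlings by position alone. A gene-start peak was one that covered the annotated 5′ end of the gene assigned to it, on the strand of that gene, and did not cover the other end of the gene. The 4 lists, of the genotypes B73, Mo17, BM and MB, held 10136 peaks, and 297 of them were gene-start peaks. They belonged to 182 genes of the 4321 with an assigned peak, and a gene never had more than 1 of them in a list.

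B73 and Mo17 are inbred lines, BM is the F1 hybrid of a B73 mother and a Mo17 father, and MB is the reciprocal cross. Aerial tissues were taken 5 days after planting, under 16 h of light at 28 °C and 8 h of dark at 23 °C, at ZT3, ZT9 and ZT15, where ZT counts the hours from dawn. The labels name no transgene or mutation. The antibody was raised to the N-terminal MYB domain of ZmCCA1. Per the paper it could recognise ZmCCA1b and a full-length ZmCCA1a that includes this domain, but the truncated ZmCCA1a of the study lacks it. With 2 biological replicates, 24 ChIP and 24 input libraries gave 48 in all. The deposited lists hold a single log2(ChIP/Input) per peak and time point, which is the authors' value over the replicates. A value therefore has no error of its own here, the reads behind a peak are unknown, and the genotype list is the unit over which conditions can be compared.

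CCA1 is a MYB-type transcription factor of the plant circadian clock, best known from Arabidopsis. It accumulates around dawn and binds short elements in the promoters of clock and output genes, among them evening-phased clock genes that it represses. The best known are the evening element (EE, AAATATCT) and the CCA1 binding site (CBS, AAAAATCT). Promoter elements of this kind usually lie a short way upstream of the transcription start. To show what such an element looks like in maize, the forward strands of the promoter probes that the study used for in vitro binding are given 5′ to 3′, with the element in capitals on whichever strand carries it (for ZmTOC1a, capitals mark the EE as read on the opposite strand).
gi1 (GRMZM2G107101), CBS: gcatcgcggaAAAAATCTttttctcgcc
ZmPRR59 (GRMZM2G135446), CBS: ctctttaaaaAAAAATCTtcatttaagg
ZmTOC1a (GRMZM2G020081), EE: ggcgagttttAGATATTTtcacccgctcc
GRMZM2G033885, EE: tcagcactgaaAAATATCTgaggttgaaa
GRMZM2G129513, EE: attaaatataaAAATATCTaaattcataa

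None of these 5 genes had a gene-start peak in any list. The gi1 gene, a maize homolog of the Arabidopsis clock gene GIGANTEA, had 3 peaks, and all of them lay inside the gene. Of 18 clock, photosynthesis and other genes that the study takes up, 9 had an assigned peak, with 29 peaks among them, 25 inside the gene and 4 upstream. The closest approach to a start was at GRMZM2G448142, where an upstream peak ended 53 bp short of it. The genes with gene-start peaks are thus known here by their identifiers. The reference gene table matched 67 of the 182, and 1 of those had a symbol other than a locus number, so no function is given for them.

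Gene-start peaks were a small class of similar size in every list. There were 93 in B73, which is 2.76% of its peaks (95% Wilson interval 2.26 to 3.37). Mo17 had 68 (3.24%, 2.56 to 4.08), BM had 77 (2.75%, 2.21 to 3.43) and MB had 59 (3.15%, 2.45 to 4.04). These intervals, like all those below, cover counting error only, and they overlap throughout. Among the 7486 peaks that overlapped their assigned gene, the gene-start share was 3.96% in the pooled hybrids and 3.98% in the pooled inbreds, a difference of -0.019 percentage points (exact permutation over lists, p = 1). The 4 pairs of a hybrid and an inbred differed by -0.96 to 0.80 points (two-sided Fisher's exact tests, adjusted p = 0.557 to 1 over 5 tests).

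Most of the other peaks that overlapped a gene lay wholly inside it, 7081 in number, while 108 covered a whole gene. No peak in any list covered only the 3′ end of the gene assigned to it. However, 172 peaks covered the 3′ end, and not the start, of a listed gene not assigned to them. Of these, 35 had no assigned gene at all, whereas 0 peaks without an assigned gene covered only the start of a listed gene. Peaks assigned elsewhere also reached starts, and 65 covered the start but not the 3′ end of a listed gene that was not their own. The deposited assignment therefore sets in part which peaks count as gene-start peaks, and the class compared with them below is made up of inside-gene peaks.

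The gene-start peaks were not centred upstream of genes. Their median width was 1246 bp, with a range of 412 to 10706 bp, and the median reach was 430 bp upstream and 564 bp into the gene. The midpoint lay a median of 76 bp downstream of the start. In 168 of the 297 (56.6%) more of the peak was inside the gene than upstream, and 64 (21.5%) reached at least 1000 bp upstream. Of the 297, 80 (26.9%) had the start within 100 bp of one of their edges.

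**Figure D1:**
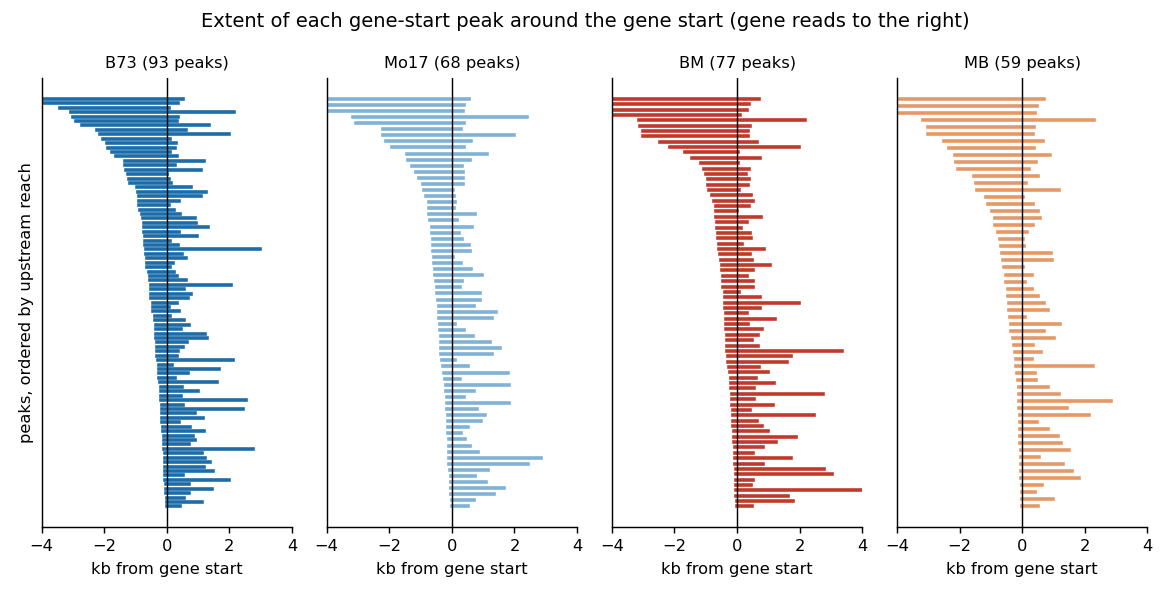
Each horizontal line is a gene-start peak, placed by its distance in kb from the gene start (vertical line), with the gene to the right, in a panel for each list, ordered by the reach upstream and cut off at 4 kb on both sides. The lines reach to both sides of the start in every list, by a median of 430 bp upstream and 564 bp into the gene, and a few lines leave the panel upstream.

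The genes under them were short. The median gene length was 3186 bp beside 7012 bp for inside-gene peaks, and 66 gene-start peaks (22.2%) lay on genes under 1000 bp against 21 inside-gene peaks (0.297%). Both peak width and gene length enter the rule, since a peak must fit inside a gene to count as inside it, so these lengths describe the classes and were not tested.

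The edge of the class can be shown by its closest cases. At GRMZM2G374263 the 4 peaks reached 3 to 9 bp past the start, and at GRMZM5G896085 the BM peak reached 4 bp into the gene. Just outside, a Mo17 peak at GRMZM2G093001 began 2 bp inside the gene, with 1.90, 1.90 and 1.96 at ZT3, ZT9 and ZT15. A B73 peak upstream of GRMZM2G031637 stopped 2 bp short of the start, with 0.14, 2.49 and 1.21. The gene GRMZM2G461598 fell on both sides, since its B73 peak covered the start by 5 bp and its Mo17 peak began 3 bp inside the gene.

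Gene-start peaks had higher median log2(ChIP/Input) than inside-gene peaks at each time point in every list. In B73 the gene-start medians at the 3 times, in order, were 1.71, 1.74 and 1.57 beside 1.48, 1.58 and 1.34 for inside-gene peaks. In Mo17 they were 1.57, 1.96 and 1.73 beside 1.31, 1.69 and 1.10. The B73 profile was thus nearly level in both classes, and the Mo17 profile was highest at ZT9 in both.

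In the hybrids the medians were highest at ZT3 and lowest at ZT15. In BM the gene-start medians were 2.04, 1.56 and 0.91 at ZT3, ZT9 and ZT15, beside 1.82, 1.47 and 0.81 inside genes. In MB they were 1.91, 1.49 and 1.44 beside 1.53, 1.49 and 0.92. The gap between the classes was widest at ZT15 in Mo17 (0.63) and MB (0.53), and at ZT9 in MB it was 0.0039.

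Averaged over the 4 lists, the gene-start median was higher by 0.37 at ZT15, 0.27 at ZT3 and 0.13 at ZT9, in 4 of 4 lists each time. An exact sign-flip test over 4 lists gave p = 0.125 at each time point, the smallest it can give. The highest of the 3 values differed less, by 0.083 on average and in 3 of 4 lists (exact sign-flip p = 0.25), with medians of 1.96, 2.13, 2.08 and 2.00 in B73, Mo17, BM and MB against 1.97, 1.93, 2.01 and 1.93 inside genes. That mean difference was 0.047 without Mo17, 0.032 without the genes of each class found in every list, and -0.034 in genes of at least 2000 bp.

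**Figure D2:**
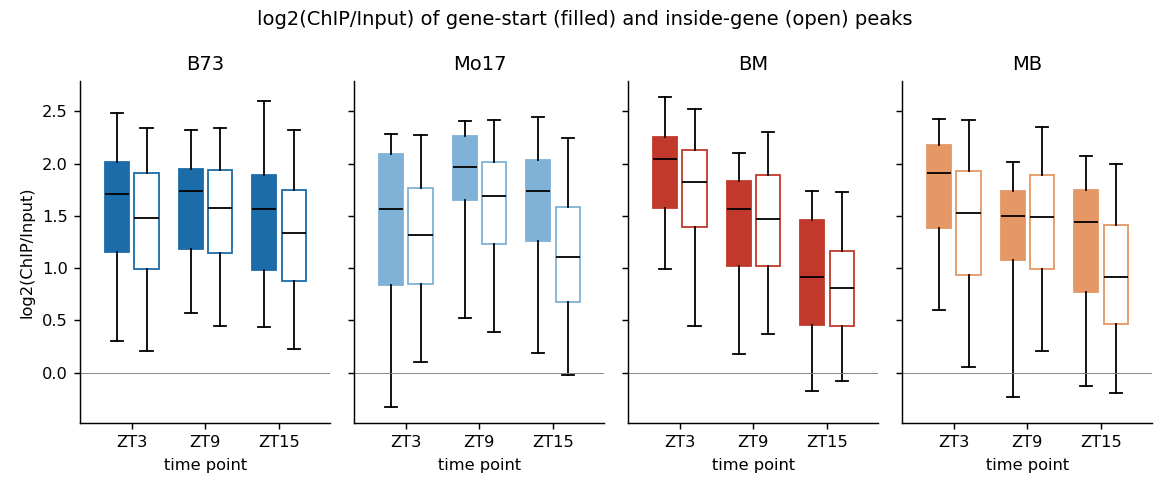
Boxes give the median and quartiles of log2(ChIP/Input) at each time point, and whiskers the 5th and 95th percentiles over peaks, for gene-start peaks (filled) and inside-gene peaks (open) in each list. The filled median lies above the open one in all 12 pairs, from a gap of 0.0039 at ZT9 in MB to 0.63 at ZT15 in Mo17.

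With like maxima and higher medians at each time, the gene-start peaks had a smaller range over the day. The median of the highest minus the lowest value was 0.60 in Mo17, 0.77 in B73, 0.89 in MB and 1.25 in BM. Inside genes it was 1.12, 1.01, 1.24 and 1.32 in the same order. Peaks over a whole gene had a lower one still, 0.31, 0.52, 0.56 and 0.80, and their median level was above that of gene-start peaks at each time in every list, so neither feature is particular to the gene-start class. The range at gene starts was lower than inside genes in 4 of 4 lists, by 0.29 on average (exact sign-flip p = 0.125, the smallest possible, in a comparison chosen after the data were seen). It shrank to 0.15 when peaks of 600 to 1500 bp were compared and to 0.14 without the genes that had such a peak in every list.

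The time of the highest value differed between the genotypes. This phase was ZT3 in 35 of 93 gene-start peaks in B73 (37.6%, Wilson 28.5 to 47.8) and in 10 of 68 in Mo17 (14.7%, 8.19 to 25.0). It was ZT3 in 58 of 77 in BM (75.3%, 64.6 to 83.6) and in 41 of 59 in MB (69.5%, 56.9 to 79.7). Over all peaks of the lists the share at ZT3 was 28.6% in Mo17, 36.0% in B73, 51.7% in MB and 63.2% in BM, so the gene-start share stood below that background in Mo17 and above it in the other lists. Gene-start peaks with the highest value at ZT9 made up 37.6%, 54.4%, 19.5% and 18.6% of B73, Mo17, BM and MB, and those at ZT15 made up 24.7%, 30.9%, 5.19% and 11.9%.

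**Figure D3:**
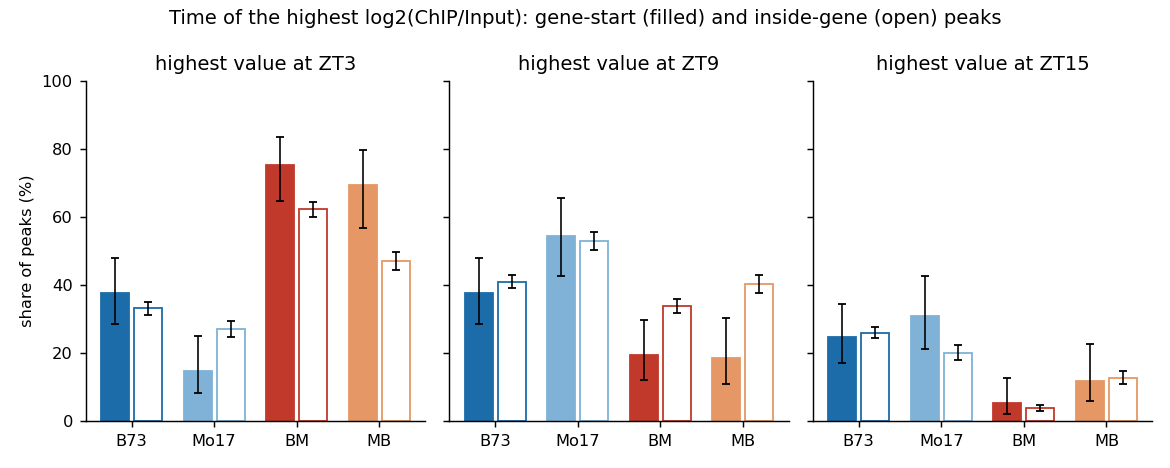
Bars give the percentage of gene-start peaks (filled) and inside-gene peaks (open) whose highest log2(ChIP/Input) was at ZT3, ZT9 or ZT15, with 95% Wilson intervals that cover counting error. At ZT3 the hybrids BM and MB stand at 75.3% and 69.5% for gene-start peaks, above B73 at 37.6% and Mo17 at 14.7%.

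Set against inside-gene peaks, the classes parted in different directions in the 4 lists. In MB the ZT3 share was 69.5% at gene starts and 47.1% inside genes, 22.4 points higher (Fisher's exact test, adjusted p = 0.00542 over 12 tests), and the ZT9 share differed by -21.6 points (18.6% and 40.3%, adjusted p = 0.00542). In BM the ZT9 share differed by -14.4 points (19.5% and 33.9%, Fisher's exact test, adjusted p = 0.0369), and the ZT3 share, 13.0 points higher, did not pass (adjusted p = 0.0575). In Mo17 the ZT3 share differed by -12.3 points (14.7% and 27.0%) and did not pass either (Fisher's exact test, adjusted p = 0.0575).

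The remaining 7 of those 12 tests had adjusted p-values above 0.05, with the B73 classes within 4.52 points of each other at each time. The mean difference over lists was 6.91 points at ZT3, and by list the exact sign-flip test gave p = 0.375. Without MB that mean was 1.74 points and without Mo17 it was 13.3. The Fisher tests treat peaks as independent and so compare these lists, not replicates of a genotype. After each time point was centred on the median of its list, no list kept a difference at ZT3 with an unadjusted Fisher's exact p under 0.05, and the mean difference was -1.87 points.

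Hybrids and inbreds were furthest apart at ZT3. Of the gene-start peaks 99 of 136 in the pooled hybrids (72.8%) and 45 of 161 in the pooled inbreds (28.0%) had their highest value at ZT3, 44.8 points apart. By list, 2 against 2, the exact permutation p was 0.333, the smallest possible, so the design cannot pass a threshold for hybrids as such. Compared list by list over their peaks, each of the 4 hybrid and inbred pairs went the same way, by 31.9 points (MB against B73) to 60.6 points (BM against Mo17), with Fisher's exact tests at an adjusted p of 0.000332 or lower over 15 tests. These tests take peaks as independent, although 67 of the 182 genes had a peak in 2 or more lists. How that recurrence moved the p-values was not tested. The hybrid minus inbred difference of the pooled share was -25.6 points at ZT9 and -19.2 points at ZT15. Inside genes these differences were -8.83 points at ZT9 and -16.6 points at ZT15.

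Inside genes the same gap was smaller, and at peaks over a whole gene it was wider. Inside genes 56.4% of hybrid and 30.9% of inbred peaks had their highest value at ZT3, a difference of 25.5 points. Whole-gene peaks, which cover the start as well, had theirs at ZT3 in 44 of 51 in the hybrids (86.3%) and 17 of 57 in the inbreds (29.8%), so the gap is not particular to gene-start peaks. The odds ratio between hybrids and inbreds was 2.39 times as large at gene starts as inside genes at ZT3 (95% Woolf interval 1.42 to 4.02, Zelen's exact test over peaks, adjusted p = 0.00215 over 3 time points) and 0.422 times as large at ZT9 (0.246 to 0.721, adjusted p = 0.00215). At ZT15 the ratio was 0.941 (0.457 to 1.94, Zelen's exact test, adjusted p = 1). These p-values take peaks as independent. As a mean of lists the difference of differences at ZT3 was 21.6 points (exact permutation p = 0.333 over lists, the smallest possible).

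These phase results depend on the common level of each time point in a list. Over all peaks the median log2(ChIP/Input) went from 1.79 at ZT3 to 1.44 at ZT9 and 0.82 at ZT15 in BM, and from 1.52 to 1.44 and 0.95 in MB, while in Mo17 it was highest at ZT9 (1.34, 1.68, 1.17). In B73 these medians were 1.48, 1.56 and 1.33. With each of these medians set to 0, the pooled ZT3 share of gene-start peaks was 35.3% in hybrids and 29.8% in inbreds, 5.48 points apart, and the ratio of odds ratios was 1.06 (0.644 to 1.74). A change in a whole library and a change in binding at all sites cannot be told apart in these files.

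On the centred scale ZT15 was the most frequent phase of gene-start peaks in every list. In MB and B73 its lead over ZT3, which had 40.7% and 33.3%, was small and was not tested. The share with the highest centred value at ZT15 was 52.9% in Mo17, 44.2% in BM, 42.4% in MB and 36.6% in B73, beside 36.9%, 33.7%, 34.4% and 33.4% over all peaks. Pooled over the hybrids it was 43.4%, and over the inbreds 43.5%, while inside-gene peaks had 27.6% and 32.1%. The gene-start medians on that scale were above 0 at every time point in each list, from 0.051 at ZT9 in MB to 0.57 at ZT15 in Mo17.

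Within a gene that had both kinds of peak, the start peak was not the stronger one throughout. There were 52 such cases in 41 genes, 8 in MB and 14 to 15 in the other lists, and the start peak was set against the highest inside peak of the same gene and list. The start peak was higher in 25 of the 52 at ZT3, 27 at ZT9 and 19 at ZT15. The mean over lists of the median difference was 0.020 at ZT3 (exact sign-flip p = 0.875), 0.087 at ZT9 (p = 0.5) and -0.15 at ZT15, where it was below 0 in 4 of 4 lists (p = 0.125, the smallest possible). Since 2 or more inside peaks of a gene give a higher maximum by choice, the nearest inside peak was also used, and the mean over the time points was then 0.055 in place of -0.016.

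Single genes departed far from these medians in both directions. The cases that follow were chosen for their size after the values were seen. In BM the start peak of GRMZM2G033876 stood at 2.49 at ZT3 and its inside peak at 0.64, but at ZT15 the start peak had 0.09 and the inside peak 1.06. In B73 the start peak of GRMZM2G442324 had 2.29 at ZT9 and its inside peak 0.10. In MB the start peak of GRMZM2G049329 had -0.20 at ZT9, when the highest of the inside peaks had 2.33. Peaks of 1 gene therefore did not share a time course in these examples.

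Most genes with a gene-start peak had one in a single list, although most of the peaks belonged to genes that recurred. Of the 182 genes, 115 had one in 1 list (63.2%, Wilson 56.0 to 69.9), 38 in 2, 10 in 3 and 19 in all 4 (10.4%, 6.79 to 15.7). For inside-gene peaks 57.5% of 3677 genes were in 1 list and 7.45% in all, and for peaks over a whole gene 40.0% of 45 genes were in all. The genes in 1 list held 115 of the 297 peaks (38.7%). Of these genes, 41 were in B73, 31 in BM, 24 in Mo17 and 19 in MB.

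A gene missing at its start from the other lists often had a peak of another class there. Of the 115, 66 (57.4%) had a peak of another class in another list, and 49 had no assigned peak in any other list. Of their 115 start peaks, 38 overlapped a peak of any class in another list, so some differed in class at the same place. Among 2113 genes with an inside-gene peak in 1 list, 3.03% had a peak of another class in another list. Inside-gene peaks were by far the largest class, so class size enters both shares. Of all 297 peaks, 77 (25.9%) overlapped no peak of another list, beside 43.8% of all peaks in the lists and 9.26% of whole-gene peaks. Between lists, 31 genes were shared by B73 and Mo17, 33.3% of the B73 genes and 45.6% of the Mo17 genes. BM and MB shared 25, which is 32.5% and 42.4% of theirs, and the 4 hybrid and inbred pairs shared 29 to 37.

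Of the 182 genes, 1 was found at both hybrids alone and 1 at both inbreds alone (0.549% each), beside 84 and 139 of 3677 inside-gene genes (2.28% and 3.78%). A single gene, GRMZM2G152853, had a start peak in BM and MB and no peak of any kind in either inbred. Its values at ZT3, ZT9 and ZT15 were 1.43, 1.78 and 0.38 in BM and those at ZT3 and ZT15 in MB were 1.66 and 0.44, so both were low at ZT15. In reverse, GRMZM5G850607 alone had a start peak in both inbreds and no peak in either hybrid. There the inbreds differed in time, with 2.60, 1.22 and 0.89 in B73 and 0.58, 1.22 and 2.26 in Mo17.

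Pooled over the lists, the more lists a gene was in, the flatter its time course was. The median range over the day was 1.30 for genes in 1 list, 0.96 in 2, 0.78 in 3 and 0.46 in all 4, and the median highest value was 1.81, 2.00, 2.19 and 2.16. By list, the median range at gene starts went from 1.21 in 1 list to 0.33 in all 4 in B73. It went from 1.38 to 0.37 in Mo17, 1.48 to 0.66 in BM and 1.25 to 0.49 in MB. In Mo17 it did not fall from genes in 3 lists (0.35, 9 peaks) to genes in 4 (0.37). Inside genes the range went from 1.35 in 1 list to 0.93 in all 4. Genes in all lists were also short, with a median length of 1352 bp against 4203 bp for genes in 1 list, and their peaks were wider, 1564 against 1099 bp. For genes in 2 and 3 lists the median lengths were 4704 and 1711.5 bp and the median widths 1263.5 and 1090.5 bp, so neither moved steadily with recurrence. In BM the median width was 1295 bp in 1 list and 1299 bp in all 4. The parts of width, length and recurrence in the flat course were not tested.

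**Figure D4:**
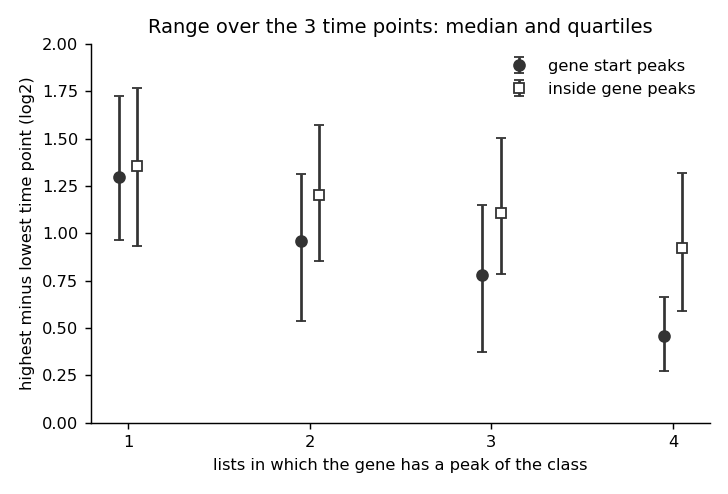
Points give the median, and bars the quartiles over peaks, of the highest minus the lowest log2(ChIP/Input) of the 3 time points, by the number of lists in which a gene had a gene-start peak (filled circles) or an inside-gene peak (open squares). The gene-start median goes from 1.30 in 1 list to 0.46 in all 4, and the inside-gene median from 1.35 to 0.93.

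The 19 genes with a start peak in every list had positive values at all 12 combinations of genotype and time point, from 1.01 to 3.79. Of these genes 7 lay on chromosome 9 and 6 on chromosome 1. On chromosome 9, 5 of them lay in the 5.03 Mb of chr9:67977574-73003481 (AGPv2), where 25 of all 266 peaks were gene-start peaks (9.40%). On chromosome 1, 3 lay in the 3.01 Mb of chr1:231601615-234609676, where 16 of 131 peaks were (12.2%). Both stretches were cut from the first to the last peak edge of these genes, which raises the shares by choice. Over all lists 297 of 10136 peaks were gene-start peaks. Over the whole class chromosome 1 held 69 gene-start peaks (23.2%) and chromosome 9 held 56 (18.9%), beside 15.5% and 8.52% of the inside-gene peaks, and genes of a stretch are not independent of each other.

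One edge of these peaks was often in nearly the same place in every list, and the other edge less so. The nearer-matching edge of a peak moved by a median of 56 bp over the 4 lists, and in 9 of the 19 by at most 50 bp. Both edges stayed within 200 bp at 7 of the 19, and at GRMZM2G448868, GRMZM2G525229, GRMZM2G142109 and GRMZM2G109848 an edge moved by 1786 to 2645 bp. At 131 genes with a single inside peak in every list that median was 490 bp, and 37 had an edge within 50 bp. The 4 start peaks of a gene cover the same base by the rule, while inside peaks of a gene need not overlap. The rule itself thus favours the smaller value at gene starts, and no conclusion on steadier edges is drawn. The widest was at GRMZM2G121654, a gene of 1495 bp on chromosome 1, where the peak was 10437, 10502, 10626 and 10706 bp wide in B73, Mo17, BM and MB and reached 9920 to 9989 bp upstream. At GRMZM2G075634 on chromosome 9 the peak was 7398 to 7535 bp wide on a gene of 559 bp. A peak of this size covers the gene start and much else, and the value is for its whole length.

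Within these 19 genes, the highest values were on short gene models. GRMZM2G374263 (679 bp, minus strand) had its peak at chr5:107924780-107925351 in B73, with 2.79, 2.42 and 3.79 at ZT3, ZT9 and ZT15, the highest gene-start value of any list. In Mo17 it had 2.26, 2.53 and 2.58, in BM 2.07, 1.98 and 1.48, and in MB 1.92 at ZT9 and 2.11 at ZT15. Both inbreds stood above both hybrids at each of the 3 time points.

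GRMZM2G378047 (432 bp, minus strand) at chr1:130329939-130330564 in B73 had 2.24, 1.96 and 3.14 there and 1.80, 1.65 and 2.03 in Mo17. The hybrids had 2.72, 2.05 and 1.55 in BM and 2.70, 1.81 and 2.07 in MB, the latter the highest gene-start value of MB. Its phase was ZT15 in both inbreds and ZT3 in both hybrids. GRMZM5G844143 (940 bp, chromosome 9) showed the same split of phase, with 1.78, 1.70 and 2.69 in B73, 2.13, 1.71 and 2.28 in Mo17, 2.26, 1.84 and 1.34 in BM and 2.37, 1.41 and 1.75 in MB.

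Other genes of the group were high without such a split. GRMZM2G481337, of 173 bp, had 2.47, 2.22 and 2.53 in B73 and 2.56, 1.90 and 1.23 in Mo17. It had 2.62, 1.04 and 1.48 in BM and 2.15, 1.52 and 1.46 in MB, with ZT3 the highest in all but B73. GRMZM2G134325 (848 bp, chromosome 6) was at 2.28, 2.29 and 2.95 in B73, 1.94, 2.07 and 2.39 in Mo17, 2.06, 2.09 and 1.83 in BM, and 2.12, 1.67 and 1.95 in MB. Its ZT15 values were thus the highest in both inbreds. At GRMZM2G009141 on chromosome 1 the Mo17 peak had 1.97, 2.05 and 2.60, the highest gene-start value of that list, and the other lists reached at most 2.16.

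GRMZM2G525229 and GRMZM2G344311 completed the 8 highest, with means over lists of the highest value of 2.29 and 2.27. The latter varied little over genotypes and times, between 1.70 and 2.34. At the low end stood GRMZM2G142109 (1.67), GRMZM2G039949 (1.68), GRMZM2G170716 (1.87) and GRMZM5G889138 (2.05), 3 of them on chromosome 9. GRMZM2G039949 had nearly the same edges in every list, within 12 bp and 4 bp, and values of 1.10 to 1.76.

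**Figure D5:**
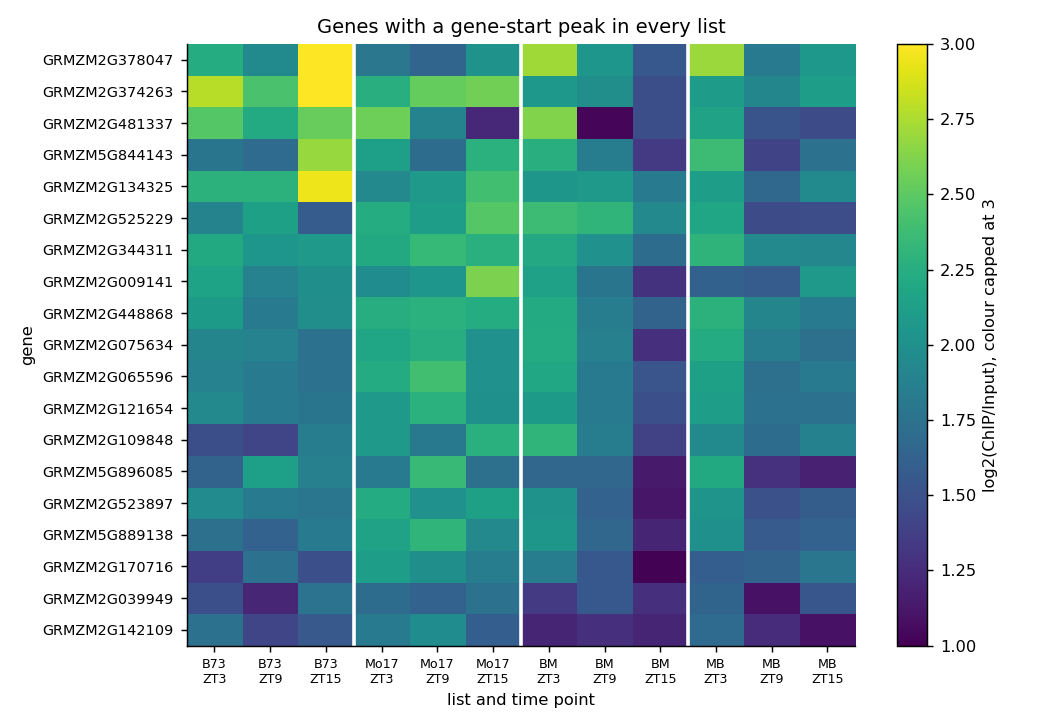
Colour gives log2(ChIP/Input) of the gene-start peak of the 19 genes with one in every list, by list and time point, with genes ordered by the mean over lists of the highest value and colours capped at 3. The BM column at ZT15 runs from 1.01 to 1.94, whereas the B73 column at ZT15 runs from 1.49 to 3.79. At GRMZM2G525229 the BM value at ZT15 was the higher of the pair, 1.94 beside 1.59.

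Hybrids and inbreds can be set side by side locus by locus in this group. The contrast of ZT3 with the mean of ZT9 and ZT15 averaged 0.49 in BM, 0.41 in MB, 0.013 in Mo17 and -0.036 in B73 over the 19. The hybrid mean exceeded the inbred mean at 19 of 19, by 0.46 on average (exact permutation over lists, p = 0.333, the smallest possible). Both hybrids exceeded both inbreds at 14 of the 19, and both were lower at 0. Over the 471 loci bound in all lists, wherever they lay, the hybrid mean exceeded the inbred mean at 417. Both hybrids exceeded both inbreds there at 60.9%, and the mean difference was 0.47, so the gene-start loci stood near the background.

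The difference came from the later times. Both hybrids were below both inbreds at ZT15 at 12 of the 19 loci, where the background was 55.2%, and at ZT9 at 9, where it was 39.1%. At ZT3 both hybrids were above both inbreds at 4, beside a background of 29.7%. The mean hybrid minus inbred difference was -0.53 at ZT15, -0.28 at ZT9 and 0.059 at ZT3. After median centring both hybrids exceeded both inbreds in the contrast at 1 locus, GRMZM2G378047, and fell below at 1, GRMZM2G065596, with a mean difference of -0.054.

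GRMZM2G378047 had the largest contrast difference between hybrids and inbreds, at 1.02 (0.50 centred), from -0.31 in B73 and -0.04 in Mo17 to 0.92 in BM and 0.76 in MB. GRMZM5G896085 followed at 0.91, with -0.36, -0.23, 0.26 and 0.98 in B73, Mo17, BM and MB. Then came GRMZM5G844143 at 0.87 and GRMZM2G134325 at 0.52, and the last stood at -0.0017 on the centred scale. At GRMZM5G896085 BM had 1.66, 1.66 and 1.14, with ZT3 and ZT9 level, and MB had 2.22, 1.29 and 1.19.

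Of the 67 genes with a gene-start peak in 2 or more lists, 14 (20.9%) had the same phase in each of their lists, beside 420 of 1564 inside-gene genes (26.9%, by the highest peak of each list). In 8 of the 14 it was ZT3, in 5 it was ZT9, and in 1 it was ZT15. Among those at ZT3, GRMZM2G132810 had 2.20, 0.61 and 0.61 in B73 and 2.27, 1.02 and 1.32 in BM. GRMZM5G825978 had 1.57 at ZT3 and 1.25 at ZT15 in B73 and 2.63, 1.39 and 0.45 in BM. GRMZM2G422464 had 2.29, 1.92 and 1.98 in B73 and 2.75, 1.63 and 0.42 in BM, the latter the highest gene-start value of BM. These 3 had a sharp ZT3 lead, of 0.96 to 1.23, in BM, and leads of 1.58, 0.33 and 0.32 in B73.

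All of the others at ZT3 had smaller leads in BM. GRMZM2G127396, in B73 and BM, led at ZT3 by 0.40 and 0.30. GRMZM2G523897 was the single gene at ZT3 in all 4 lists, with 1.96, 2.23, 2.03 and 2.04 in B73, Mo17, BM and MB and leads of 0.14, 0.09, 0.40 and 0.45. Its neighbour GRMZM2G523904 was at ZT3 in B73, Mo17 and BM with leads of 0.17, 0.01 and 0.27. The leads of GRMZM2G156536 in Mo17 and BM were 0.17 and 0.15, and those of GRMZM2G055859 in BM and MB were 0.36 and 0.06. A lead of a few hundredths gives a phase that a small error could turn.

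The genes held at ZT9 were all in Mo17 with 1 other list, B73 or MB. GRMZM2G442324, a gene of 40459 bp on chromosome 1, had 1.33, 2.29 and 1.90 in B73 and 0.76, 1.95 and 1.48 in Mo17. GRMZM2G104254 had 1.64, 1.86 and 1.27 in Mo17 and 0.91, 1.66 and 0.58 in MB. GRMZM2G130287 had 0.75, 1.88 and 1.77 in Mo17 and 1.05, 1.69 and 0.94 in MB. The lowest time was ZT3 in both lists at GRMZM2G442324 and ZT15 in both lists at GRMZM2G104254.

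GRMZM2G028914 led at ZT9 by 0.22 in Mo17 and 0.43 in MB, and GRMZM2G030695 by 0.08 in both B73 and Mo17. The single gene held at ZT15 was GRMZM2G162167, with 0.62, 1.18 and 1.96 in B73 and a level 1.56, 1.55 and 1.60 in BM. None of the 14 genes held a phase at ZT9 in BM.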

How the data were processed

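Per the paper's methods, the authors trimmed reads, aligned them with Bowtie to B73 AGPv2, a reference-guided Mo17 assembly or, for hybrids, the better of both, kept unique concordant pairs, removed duplicates, down-sampled libraries, called peaks with MACS2 2.0.1 (submitters' processing notes) against input, kept those overlapping in both replicates, merged time points per genotype and assigned genes within 10 kb. The deposited values are the authors' log2(ChIP/Input), pooled over replicates. How replicates were combined is not given in the sources used here. Coordinates are AGPv2 as deposited.

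Peaks were classed by strand-aware position. Phase was the time point of the highest value, and ties were left out. Two-sided Fisher tests with Benjamini-Hochberg adjustment, Zelen's exact test and exact list-level tests were run with scipy 1.17.1 and pandas 2.3.3 under Python 3.11.15 (numpy 2.4.6), after checks on simulated lists. Peaks are not replicates, so p-values over peaks compare lists. Loci were peaks overlapping by at least 1 bp in all 4 lists. The comparison of odds ratios, the range over the day, the width and recurrence subsets and mean centring were chosen after seeing the data. Named genes were 18 study genes, genes in every list (8 highest, 4 lowest), the 4 largest loci with both hybrids above both inbreds, genes with a start peak in both hybrids or both inbreds alone, the highest peak of each list and, for each list and phase, the 3 largest leads among genes of constant phase. The members, gene lists and tests were chosen with earlier results of these data known. Product names, promoter sequences and motifs in peaks were not analysed here. The authors' lists hold no read counts.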

Additional observations from a re-analysis of the deposited data

Results flagged for a closer look

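The difference in phase between hybrids and inbreds was unequal between gene-start and inside-gene peaks, by a test of that difference itself over peaks taken as independent (Zelen's exact test, chosen after the data were seen). The odds ratio of a phase at ZT3 was 2.39 times as large at gene starts (exact test, adjusted p = 0.00215), and that of a phase at ZT9 was 0.422 times as large (adjusted p = 0.00215). After median centring the corresponding ratios were 1.06 (exact test, adjusted p = 0.899) and 0.741 (adjusted p = 0.601). With the list as the unit the difference of differences at ZT3 was 21.6 points (exact permutation, p = 0.333, the smallest possible). Whole-gene peaks had a still wider gap at ZT3, 86.3% in hybrids and 29.8% in inbreds.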

How the results depend on the processing

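No paired analysis was possible because the deposited lists hold no replicate values. Median centring of each list and time point had the largest effect. With it the hybrid minus inbred difference in the ZT3 share of gene-start peaks was 5.48 points in place of 44.8 (16.2 with mean centring), and the difference of that gap from inside genes was 2.41 in place of 21.6 (7.50 with mean centring). The ZT3 share at gene starts minus inside genes turned to -1.87 over lists and to -5.79 in BM, the locus contrast between hybrids and inbreds turned to -0.054, and that of GRMZM2G134325 to -0.0017. Without Mo17 the difference of gaps was 13.2, and the ZT3 share at gene starts minus inside genes was 13.3 (1.74 without MB). The near-zero hybrid minus inbred share of gene-start peaks was 0.354 points without Mo17 and 0.430 without BM. It was -0.675 points without B73 and -0.306 without MB. The same-gene difference was 0.055 against the nearest peak, 0.015 without BM and 0.023 without MB. The highest value at gene starts minus inside genes was -0.034 in genes of at least 2000 bp. The MB difference at ZT3 was 14.3 points in peaks of 600 to 1500 bp (Fisher's exact test, p = 0.214) and 17.3 in genes of at least 2000 bp (p = 0.0430). Over the other alternatives the hybrid minus inbred share at ZT3 ranged from 35.2 to 58.1 points. List-level tests cannot pass 0.05 with 4 lists, so they say nothing of stability. The comparison with peaks inside the gene only was identical, because no peak covered a 3′ end alone.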
